A study of Homo sapiens with 8 samples.

Results

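The genes described here encode 39 chaperones, co-chaperones and heat shock factors of the cytosol and the mitochondria, chosen by name. A member was read from a probe set whose only symbol was that gene, and where a gene had several such probe sets the one with the highest mean over the 8 arrays was taken. Of the 39 genes, 36 had such a probe set and 35 were bright enough to test, out of 18132 genes with a probe set and 10527 tested. HSF2 and AHSA1 were not analysed here, because no single-symbol probe set carried them. HSPA1A was represented by probe sets shared with HSPA1B alone. HSPB8, a small heat shock protein, lay between 3.49 and 3.81 on the log2 scale in all 8 arrays, below the floor of 5.36, and was too dim to test.

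Total RNA was measured on 8 single-colour expression arrays. The resistant line H3122-LR2 was measured with ceritinib, with crizotinib and untreated, and the resistant line H3122-LR3 with ceritinib and untreated. Parental H3122 cells, a lung adenocarcinoma line carrying the EML4-ALK fusion, were measured with ceritinib, with crizotinib and untreated. The series describes LR2 and LR3 as ceritinib-resistant, and both are compared with the parental line. Ceritinib and crizotinib are inhibitors of the ALK kinase, each given at 1000 nM for 6 h. Every line by agent condition had 1 array, and the labels did not say how the resistant lines were made, whether either was a clone, or whether any cultures were grown separately. The p-values below therefore measure the spread between these arrays, which may be technical. That spread also includes any difference between lines in their response to an agent, as for DUSP6 below. With 1 array per condition the sources of spread cannot be separated.

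Array medians lay between 5.31 and 5.36, except for 5.46 with ceritinib in LR2. All 8 listed markers of lung adenocarcinoma epithelium lay above the floor in every array, and all 5 fibroblast markers lay below it. Of the 4 leukocyte markers with a probe set, 3 were below the floor in every array. Of the 4 endothelial markers, 2 were above it in every array, at no more than 6.52. DUSP6, a phosphatase gene that follows ERK activity, differed from the untreated array by -0.28 with ceritinib and -4.53 with crizotinib in LR2, and by -0.13 with ceritinib in LR3. In parental cells it differed by -5.02 with ceritinib and -4.48 with crizotinib (log2, single arrays).

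Heat shock proteins bind unfolded or partly folded proteins and help them fold, assemble or be degraded. HSP70 proteins work in cycles driven by ATP, in which J proteins deliver substrates and stimulate the ATPase, while HSP110 and BAG proteins release the nucleotide. HSP90 acts later, on kinases and receptors handed over by co-chaperones such as CDC37, and ALK fusion kinases are among its clients. The chaperonin TRiC folds actin and tubulin in the cytosol, and HSPD1 with HSPE1 forms the chaperonin of mitochondria. Heat shock factor 1, HSF1, binds inverted repeats of GAA in the promoters of many of these genes and raises their transcription under proteotoxic stress.

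The promoter windows of 6 genes are shown, because those genes carry results below. DNAJB1, HSPH1 and DNAJC2 fell with crizotinib, and HSP90AB1 was higher in both resistant lines. DNAJA1 and CHORDC1 had large negative values with both inhibitors without being called. The uncalled values of STIP1 were close to those of CHORDC1, but its windows are not shown. DNAJB1 and HSP90AB1 have 3 RefSeq windows each, and the one with the most motifs is shown. Each runs 5′ to 3′ from 250 bases before to 50 bases after a RefSeq start site on GRCh38.p14. Capitals mark stretches whose letters match inverted repeats of GAA, with the bases between the units.
DNAJB1 (chr19:14518348-14518647, minus strand): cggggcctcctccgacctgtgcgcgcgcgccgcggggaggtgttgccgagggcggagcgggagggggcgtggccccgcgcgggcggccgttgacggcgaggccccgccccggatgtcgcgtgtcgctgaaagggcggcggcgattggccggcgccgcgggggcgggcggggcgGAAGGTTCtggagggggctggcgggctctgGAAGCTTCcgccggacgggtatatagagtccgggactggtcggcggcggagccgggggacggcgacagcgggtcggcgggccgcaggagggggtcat
HSPH1 (chr13:31162339-31162638, minus strand): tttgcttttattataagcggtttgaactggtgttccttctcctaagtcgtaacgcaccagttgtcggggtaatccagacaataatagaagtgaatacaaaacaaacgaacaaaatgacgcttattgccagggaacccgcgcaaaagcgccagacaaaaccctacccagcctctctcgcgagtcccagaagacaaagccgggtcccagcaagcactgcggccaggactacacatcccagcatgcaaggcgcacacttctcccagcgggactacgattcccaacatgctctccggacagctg
DNAJC2 (chr7:103344718-103345017, minus strand): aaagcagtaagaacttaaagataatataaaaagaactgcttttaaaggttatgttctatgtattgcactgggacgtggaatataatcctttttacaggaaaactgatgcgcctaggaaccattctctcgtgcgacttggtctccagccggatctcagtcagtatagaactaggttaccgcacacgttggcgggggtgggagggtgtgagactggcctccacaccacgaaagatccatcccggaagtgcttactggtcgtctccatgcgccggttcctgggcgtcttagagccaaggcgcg
DNAJA1 (chr9:33025023-33025322, plus strand): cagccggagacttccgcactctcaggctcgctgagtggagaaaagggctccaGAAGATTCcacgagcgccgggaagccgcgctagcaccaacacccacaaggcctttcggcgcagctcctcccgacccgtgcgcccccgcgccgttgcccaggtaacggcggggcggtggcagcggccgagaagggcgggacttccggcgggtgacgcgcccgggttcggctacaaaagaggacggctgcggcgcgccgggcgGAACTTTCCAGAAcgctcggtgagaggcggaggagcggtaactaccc
CHORDC1 (chr11:90223000-90223299, minus strand): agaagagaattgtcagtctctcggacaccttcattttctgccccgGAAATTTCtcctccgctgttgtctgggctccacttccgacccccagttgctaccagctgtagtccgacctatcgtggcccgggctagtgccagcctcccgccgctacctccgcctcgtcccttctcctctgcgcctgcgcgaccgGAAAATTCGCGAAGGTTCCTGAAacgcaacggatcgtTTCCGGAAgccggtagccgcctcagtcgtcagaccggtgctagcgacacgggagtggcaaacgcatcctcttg
HSP90AB1 (chr6:44247693-44247992, plus strand): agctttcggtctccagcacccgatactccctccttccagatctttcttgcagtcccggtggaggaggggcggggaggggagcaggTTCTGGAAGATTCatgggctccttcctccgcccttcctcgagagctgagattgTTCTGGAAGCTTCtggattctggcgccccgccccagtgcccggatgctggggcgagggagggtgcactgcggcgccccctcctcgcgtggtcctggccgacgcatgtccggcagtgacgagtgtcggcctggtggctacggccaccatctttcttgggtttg

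The motifs searched on both strands were the pairs GAANNTTC and TTCNNGAA and the 3-unit runs TTCNNGAANNTTC and GAANNTTCNNGAA, in which the pairs are contained. In the DNAJB1 window the capitals lie between -77 and -40 from the start site, as 2 separate pairs, and the other 2 windows of that gene hold 1 and 0 pairs. The windows of HSPH1 and DNAJC2 hold none of the motifs. In the CHORDC1 window they lie between -205 and -16, with 3-unit runs overlapping in a stretch of 23 bases. The HSP90AB1 window has 2 such runs between -165 and -100, and the other windows of HSP90AB1 hold no motif. Of the 2 windows of STIP1, 1 holds 1 pair and the other holds no motif. RefSeq windows existed for 36 of the 39 members, the exceptions being HSF1, HSPA14 and FKBP4. A pair was present in 19 of these 36 genes (52.8%), against 4417 of 27305 genes with any window (16.2%). A 3-unit run was present in 7 of the 36 (19.4%), namely HSPA8, HSP90AA1, HSP90AB1, CHORDC1, HSPD1, DNAJA1 and DNAJB6, against 166 of the 27305 (0.608%). Counted by window, a pair was present in 20 of 49 member windows (40.8%) and 4737 of 35116 in all (13.5%), and a 3-unit run in 7 of 49 (14.3%) and 172 of 35116 (0.49%). These shares describe the letters in the windows and were not set against the expression values.

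Each level given below is that of 1 probe set, so levels of different genes are not ranked. HSPA8, the constitutive HSP70, had 13.41, 13.38 and 13.57 in LR2 with ceritinib, with crizotinib and untreated, 13.32 and 13.44 in LR3 with ceritinib and untreated, and 13.22, 13.41 and 13.50 in parental cells in the same order as LR2. The lines overlapped.

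**Figure D1:**
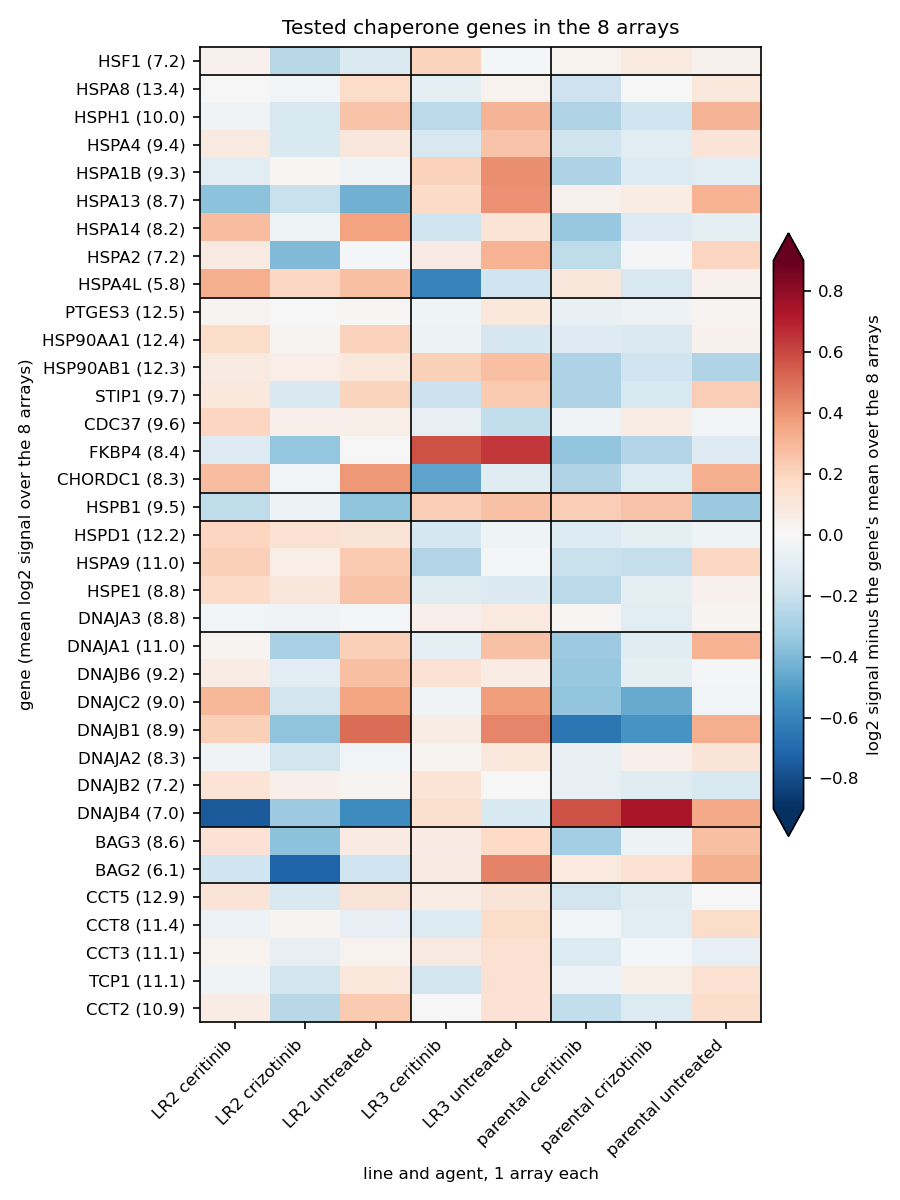
Each row is 1 of the 35 tested members with its mean log2 signal, each column is 1 array, and colour is the log2 signal minus the gene's mean over the 8 arrays, on a scale that ends at -0.9 and 0.9. DNAJB4 is low in the LR2 columns and high in the parental ones, FKBP4 is high in both LR3 columns, and DNAJB1 is lower in the inhibitor columns than in the untreated column of the same line.

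The first comparison, LR2 against parental cells, asked how the chaperones differed in a resistant line. It used all 8 arrays in a limma model with line and agent as terms. Called here means a p under 0.05 after Benjamini-Hochberg adjustment, made over every tested gene. In LR2, DNAJC2, HSPA14, HSP90AB1 and HSPE1 were higher and DNAJB4, BAG2 and HSPA13 were lower. The 4 higher calls were 11.4% of the 35 tested members, against 12.8% of all genes tested, and the 3 lower calls were 8.57%, against 9.68%. The median difference was 0.08 over the members and 0.02 over all genes (log2). Above 0 lay 25 of the 35 members and 5864 of the 10527 genes tested.

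DNAJB4, a cytosolic J protein, had the largest difference of the members. Its log2 signal was 6.26, 6.69 and 6.45 in LR2 with ceritinib, with crizotinib and untreated, and 7.59, 7.75 and 7.36 in parental cells in the same order. Every LR2 array was below every parental array. The fitted difference was -1.10 ± 0.10 (SE, adjusted p = 0.000384), a 2.14-fold lower signal. The call held under all 17 alternative settings, where the difference ran between -1.21 and -0.95.

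The other 2 lower calls in LR2 were of a nucleotide exchange factor and an HSP70 relative. BAG2, which releases the nucleotide from HSP70, had 5.88, 5.34 and 5.88 in LR2 and 6.15, 6.20 and 6.38 in parental cells with ceritinib, with crizotinib and untreated. The groups did not overlap, and the crizotinib array of LR2, at the floor, was the lowest. The difference was -0.54 ± 0.12 (SE, adjusted p = 0.0135). HSPA13, an HSP70 family member of the microsomes, had 8.35, 8.52 and 8.29 in LR2 and 8.76, 8.79 and 9.03 in parental cells in that order, again without overlap. The difference was -0.47 ± 0.10 (SE, adjusted p = 0.012).

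Among the higher calls in LR2 were both partners of the ribosome-associated chaperone pair. DNAJC2, the J protein of that pair, had 9.33, 8.87 and 9.39 in LR2 with ceritinib, with crizotinib and untreated, and 8.68, 8.58 and 9.01 in parental cells in the same order. Each LR2 array was above the parental array of the same agent, but the LR2 crizotinib array was below untreated parental cells. The difference was 0.44 ± 0.09 (SE, adjusted p = 0.0123). HSPA14, its HSP70 partner, had 8.50, 8.18 and 8.58 in LR2 and 7.88, 8.10 and 8.13 in parental cells, and the difference was 0.38 ± 0.11 (SE, adjusted p = 0.0345). Here the groups did not overlap, but LR2 with crizotinib was close to untreated parental cells.

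HSP90AB1, the constitutive cytosolic HSP90, was higher in LR2. It had 12.36, 12.34 and 12.37 in LR2 and 12.00, 12.10 and 12.01 in parental cells with ceritinib, with crizotinib and untreated. The groups were apart, and arrays of a line were close to each other. The difference was 0.32 ± 0.07 (SE, adjusted p = 0.0133), while HSP90AA1, the inducible form, was not called at 0.20 ± 0.08 (SE, adjusted p = 0.0897).

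Of the mitochondrial group, HSPE1 was called and HSPD1 was not. HSPE1, the cochaperonin, had 8.98, 8.91 and 9.07 in LR2 and 8.57, 8.73 and 8.85 in parental cells, a difference of 0.27 ± 0.08 (SE, adjusted p = 0.0471), and the groups did not overlap. HSPD1, the chaperonin itself, had a difference of 0.23 ± 0.07 (SE, adjusted p = 0.0528). Its value depended on the probe set: with probe sets of suffix _s_at or _x_at left out the HSPD1 difference was 0.81 (adjusted p = 0.000676).

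The other tested members were not called in LR2. DNAJB1, the main stress-inducible J protein, differed by 0.41 ± 0.14 (SE, adjusted p = 0.0724), and HSPB1, a small heat shock protein that holds unfolded proteins, by -0.26 ± 0.11 (SE, adjusted p = 0.129). HSF1 differed by -0.17 ± 0.09 and HSPA1B by 0.12 ± 0.07 (SE). HSPA8 and HSPH1 each differed by 0.08, and BAG3, a co-chaperone of stress-induced autophagy, by -0.03. The HSPA8 value depended on the setting: it ran from 0.02 to 0.31 over 17 alternatives, and 1 of them called it higher. All 5 TRiC subunits stayed within -0.08 and 0.12.

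Single arrays mattered to the count in LR2, over the members and over all genes. For the members it was 4 without untreated parental cells (11.4%, against 14.1% of all genes) and 4 without LR2 with ceritinib (11.4%, against 12.8%). It was 3 without untreated LR2 (8.57%, against 12.5%) and 7 with all arrays (20%, against 22.5%). HSPE1 lost its call without any 1 of the 8 arrays (0.19 to 0.32), and HSPA14 without any but the 2 crizotinib arrays (0.27 to 0.38). HSP90AB1 lost it without untreated parental cells, LR2 with ceritinib or untreated LR2 (0.30 to 0.31). BAG2 lost it without the crizotinib array of either line or untreated LR2 (-0.53 to -0.39), and HSPA13 without untreated parental cells (-0.39).

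LR3 was compared with the same parental arrays, so the results of both lines share their controls. In LR3, FKBP4, HSPA1B and HSP90AB1 were higher and DNAJB4 and HSPA4L were lower. The 3 higher calls were 8.57% of the members, against 9.53% of all genes, and the 2 lower calls were 5.71%, against 12.1%. The median difference was 0.05 over the members and 0.01 over all genes (log2).

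FKBP4, an immunophilin that joins HSP90 in steroid receptor complexes, had the largest rise. Its log2 signal was 8.98 and 9.04 in LR3 with ceritinib and untreated, and 8.05, 8.14 and 8.29 in parental cells with ceritinib, with crizotinib and untreated. Both LR3 arrays were above every parental array and every LR2 array, which had 8.29, 8.06 and 8.40. The difference from parental cells was 0.80 ± 0.10 (SE, adjusted p = 0.0015), a 1.74-fold higher signal. FKBP4 kept the call under 16 of 17 alternative settings, and with the matched arrays alone its difference was 0.84 (adjusted p = 0.0966).

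HSP90AB1 was higher in LR3 as well. It had 12.49 and 12.55 in LR3, against 12.00 to 12.10 in parental cells, a difference of 0.50 ± 0.08 (SE, adjusted p = 0.00494). HSP90AA1 had 12.34 and 12.23 in LR3 and 12.27, 12.25 and 12.42 in parental cells, which overlapped, and differed by -0.07 ± 0.09 (SE, adjusted p = 0.608).

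DNAJB4 was lower in LR3 than in parental cells too, though the distance was smaller than in LR2. It had 7.16 and 6.88 in LR3 with ceritinib and untreated, below the lowest parental array at 7.36 and above the highest LR2 array at 6.69. The difference from parental cells was -0.45 ± 0.12 (SE, adjusted p = 0.0305). HSPA4L, a member of the HSP110 family, had 5.16 and 5.58 in LR3 and 5.86, 5.62 and 5.80 in parental cells, near the floor and without overlap, with a difference of -0.44 ± 0.12 (SE, adjusted p = 0.0367).

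The stress-inducible HSP70 genes HSPA1A and HSPA1B encode nearly the same protein, and their probe sets did not all move together. The probe set named for HSPA1B alone had 9.54 and 9.75 in LR3 with ceritinib and untreated, and 9.06, 9.21 and 9.24 in parental cells with ceritinib, with crizotinib and untreated. LR3 was above every parental array, with a difference of 0.50 ± 0.08 (SE, adjusted p = 0.00482). In LR2 the HSPA1B probe set had 9.23, 9.35 and 9.30, overlapping the parental arrays.

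Another 4 probe sets were shared by HSPA1A and HSPA1B, and they were tested in a fit over all 25791 probe sets above the floor. In LR3, 3 of the 4 were called higher (0.40 to 0.45), against 8.86% of all probe sets, and 1 was called lower, against 10.2%. That 1 probe set had 5.43 and 5.44 in LR3, 7.38, 7.75 and 7.42 in LR2, and 8.51, 8.52 and 8.04 in parental cells, each with ceritinib, then crizotinib where it was given, then untreated. The lines did not overlap, and LR3 was at the floor. The differences from parental cells were -2.82 ± 0.13 in LR3 (SE, adjusted p = 2.85e-05) and -0.84 ± 0.11 in LR2 (SE, adjusted p = 0.00191). In LR2 none of the 4 was called higher, against 13.3% of all probe sets, and this 1 was lower, against 8.29%. HSPA1A and HSPA1B cannot be told apart on these probe sets, and the transcript behind the discordant one was not identified.

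**Figure D2:**
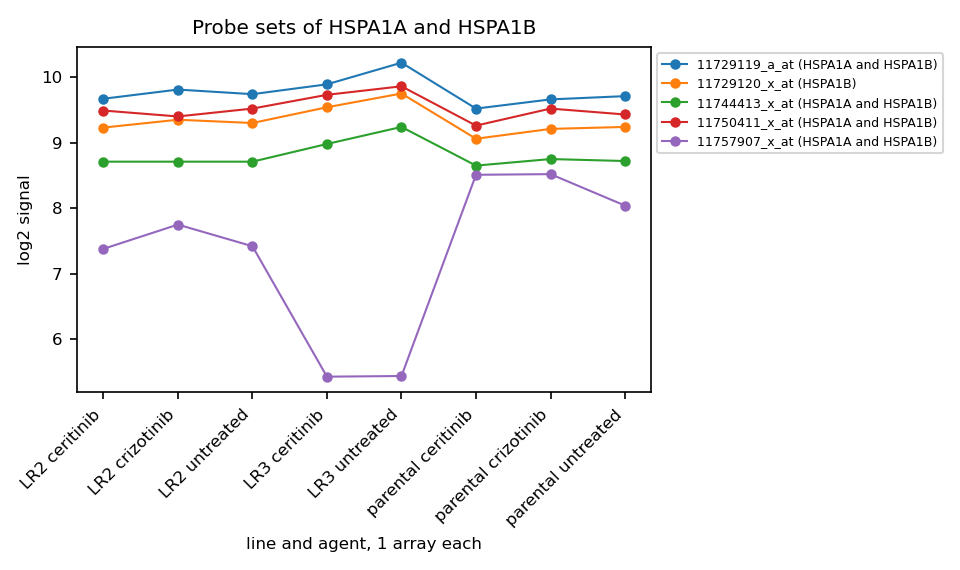
The vertical axis is the log2 signal of the 5 probe sets for HSPA1A and HSPA1B, and each column is 1 array of LR2, LR3 or parental cells. Points of 1 probe set are joined for reading only. In LR3, 4 probe sets have their highest values and the fifth has its lowest, 5.43 and 5.44.

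HSPB1 had 9.71 and 9.75 in LR3 and 9.71, 9.74 and 9.15 in parental cells with ceritinib, with crizotinib and untreated, so only untreated parental cells were low. It was not called in LR3 (0.29 ± 0.13, SE, adjusted p = 0.148). HSF1, HSPA8, HSPH1, HSPD1, HSPE1 and BAG3 lay between -0.04 and 0.07 in LR3, and DNAJB1 differed by 0.36 ± 0.16 (SE, adjusted p = 0.16).

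With the matched arrays alone, which leaves out the LR2 arrays and parental cells with crizotinib, no member was called in LR3 against parental cells, and neither was any of the 10527 genes (lowest adjusted p = 0.0788), with 6 members and 3092 genes at an unadjusted p under 0.05. Without the parental or the LR2 crizotinib array the LR3 count was 3 (8.57%, against 15.3% of all genes). Without untreated parental cells it was 3 as well (8.57%, against 12.2%). With all arrays it was 5 (14.3%, against 21.6%). Leaving out either LR3 array left 1 array of that line, and fewer members and fewer of all genes were called. DNAJB4 lost its call without any array except LR2 with ceritinib or untreated LR2 (-0.58 to -0.32). HSPA4L lost its call without any array except untreated LR2 or untreated LR3 (-0.51 to -0.20). Without untreated LR3, HSP90AB1 (0.47) and HSPA1B (0.46) lost theirs.

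**Figure D3:**
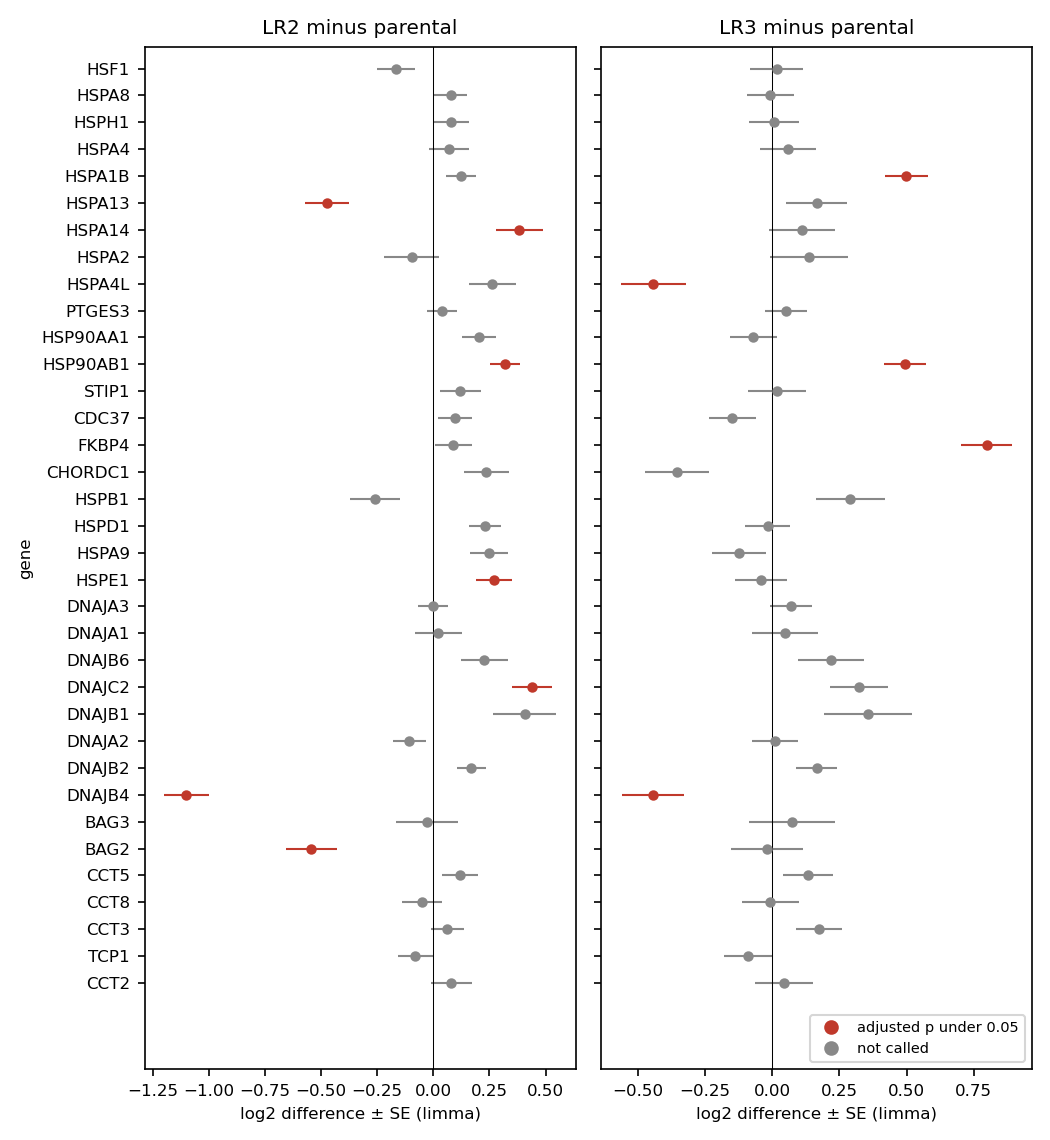
Points are limma log2 differences of the 35 tested members, LR2 minus parental on the left and LR3 minus parental on the right, and bars are 1 SE. Red points have an adjusted p under 0.05: 7 members in LR2, with DNAJB4 at -1.10, and 5 in LR3, with FKBP4 at 0.80.

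The difference between the resistant lines was tested directly. FKBP4, DNAJB4, HSPA13, HSPB1, BAG2 and HSPA1B were higher in LR3 than in LR2, and HSPA4L, CHORDC1 and HSPA9 were lower. The 6 higher calls were 17.1% of the members, against 7.29% of all genes, and the 3 lower calls were 8.57%, against 12.3%. The median over the members was -0.01 and over all genes -0.02.

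Among the higher calls, FKBP4 was 0.71 ± 0.10 higher in LR3 than in LR2 (SE, adjusted p = 0.00232), and kept the call under all 17 alternative settings. DNAJB4 was 0.66 ± 0.12 higher (SE, adjusted p = 0.00694) and HSPA13 0.64 ± 0.11 higher (SE, adjusted p = 0.00715). HSPA13 had 8.89 and 9.13 in LR3, against 8.35, 8.52 and 8.29 in LR2, with no overlap. HSPB1 was 0.55 ± 0.13 higher (SE, adjusted p = 0.0215), at 9.71 and 9.75 in LR3 and 9.26, 9.44 and 9.12 in LR2.

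Among the lower calls, HSPA4L differed by -0.71 ± 0.12 (SE, adjusted p = 0.00628). CHORDC1, an HSP90 co-chaperone that is itself heat-inducible, had 7.85 and 8.21 in LR3 and 8.60, 8.30 and 8.71 in LR2, a difference of -0.59 ± 0.12 (SE, adjusted p = 0.0117). HSPA9, the mitochondrial HSP70 that pulls proteins through the inner membrane, had 10.75 and 11.00 in LR3 and 11.23, 11.07 and 11.25 in LR2, a difference of -0.37 ± 0.10 (SE, adjusted p = 0.0337). Neither gene overlapped between the lines. BAG2 was 0.52 and HSPA1B 0.38 higher. HSP90AB1 did not differ by call between the lines (0.18 ± 0.08, SE, adjusted p = 0.166).

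Of the mitochondrial members, HSPE1 differed by -0.31 ± 0.10 (SE, adjusted p = 0.0534) and HSPD1 by -0.25 ± 0.08 (SE, adjusted p = 0.0748). HSP90AA1 differed by -0.27 (adjusted p = 0.0644). HSF1, HSPA8, HSPH1, DNAJB1 and BAG3 lay between -0.08 and 0.18. Over 17 alternative settings HSPA8 ran from -0.34 to -0.025, and 1 of them called it lower.

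Leaving out either LR3 array left 1 array of that line. Fewer members, and fewer of all genes, were then called between the resistant lines. Without LR3 with ceritinib, DNAJB4 (0.53) and HSPA4L (-0.47) lost their calls, and without untreated LR3, HSPA13 (0.57) did. CHORDC1 lost its call without either LR3 array (-0.59 in both), and BAG2 (0.40 to 0.65) and HSPA1B (0.33 to 0.42) without either LR3 array or untreated LR2. HSPB1 (0.36 to 0.60) and HSPA9 (-0.39 to -0.28) each lost it without any 1 of 5 arrays, which included LR2 with ceritinib, untreated LR3 and both crizotinib arrays. The fifth was untreated LR2 for HSPB1 and LR3 with ceritinib for HSPA9.

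**Figure D4:**
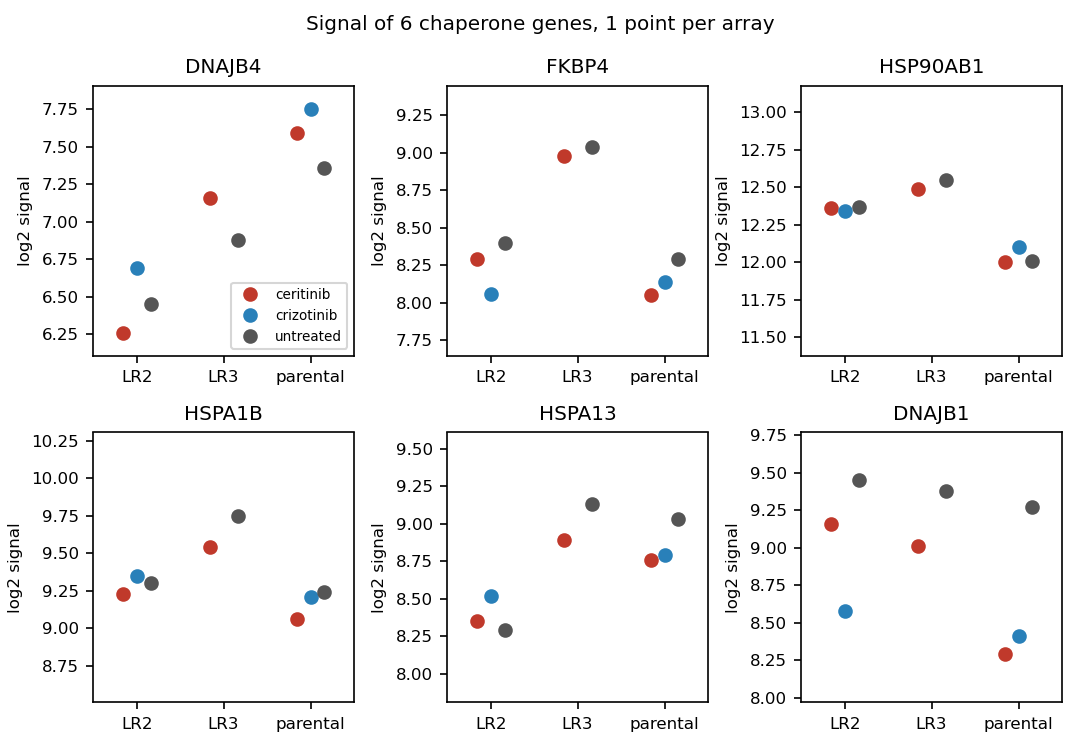
Each point is the log2 signal of 1 array, by line and coloured by agent, and every panel spans 1.8 log2 units. FKBP4 in LR3 (8.98 and 9.04) is above both other lines, HSP90AB1 is lowest in parental cells, DNAJB4 is lowest in LR2, and DNAJB1 is highest in the untreated array of each line.

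The agent comparisons asked what the ALK inhibitors did to the chaperones after 6 h. Both agents share the untreated arrays. With crizotinib, given to LR2 and parental cells, DNAJB1, DNAJC2 and HSPH1 fell and no member rose. The 3 lower calls were 8.57% of the members, against 0.94% of all genes, and the 0 higher calls stood against 2.82%. At an unadjusted p under 0.05, 13 members differed with crizotinib (37.1%, against 23.2% of all genes), 11 of them lower (against 9.63% of all genes lower). With ceritinib, given to all 3 lines, no member was called (0% of all genes), and 11 members had an unadjusted p under 0.05 (31.4%, against 19.2% of all genes), all lower (against 4.1% of all genes lower).

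DNAJB1 was low in every inhibitor array relative to the untreated array of its line. It had 9.16, 8.58 and 9.45 in LR2 with ceritinib, with crizotinib and untreated, 9.01 and 9.38 in LR3 with ceritinib and untreated, and 8.29, 8.41 and 9.27 in parental cells in the order of LR2. In single arrays it differed from untreated cells by -0.29 with ceritinib and -0.87 with crizotinib in LR2, by -0.37 with ceritinib in LR3, and by -0.98 with ceritinib and -0.86 with crizotinib in parental cells. Across lines DNAJB1 differed by -0.55 ± 0.14 with ceritinib (SE, adjusted p = 0.11), and fell by 0.82 ± 0.16 with crizotinib (SE, adjusted p = 0.0416).

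HSPH1, the HSP110 that releases nucleotide from HSP70, had close estimates with both agents. It had 10.00, 9.89 and 10.29 in LR2 with ceritinib, with crizotinib and untreated, 9.79 and 10.34 in LR3, and 9.76, 9.85 and 10.34 in parental cells. All 5 inhibitor arrays were below all untreated arrays. HSPH1 differed by -0.47 ± 0.08 with ceritinib (SE, adjusted p = 0.0641) and fell by 0.46 ± 0.09 with crizotinib (SE, adjusted p = 0.042). DNAJC2 differed by -0.27 ± 0.09 with ceritinib (SE, adjusted p = 0.174) and fell by 0.51 ± 0.11 with crizotinib (SE, adjusted p = 0.0444).

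Most other members lay below 0 with both inhibitors without passing the test. Of the 35 members, 30 were below 0 with ceritinib, at a median of -0.15 against 0.04 over all genes. With crizotinib 30 were below 0 as well, at a median of -0.16 against 0.02 over all genes. Of the 10527 genes tested, 3836 were below 0 with ceritinib and 4769 with crizotinib. The members' counts of 30 were the same after centring each array on its median and after quantile normalization. DNAJA1, which partners HSP70, differed by -0.39 with ceritinib (adjusted p = 0.123) and -0.45 with crizotinib (adjusted p = 0.0788). CHORDC1 differed by -0.36 with ceritinib and -0.43 with crizotinib, and STIP1, the adaptor between HSP70 and HSP90, by -0.35 and -0.38, none of them called. The 8 tested HSP70 and HSP110 genes, the 4 mitochondrial and the 5 TRiC genes were below 0 with both agents.

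HSPB1, DNAJB4, CDC37 and DNAJB2 lay above 0 with both inhibitors without being called. HSPB1 differed by 0.22 ± 0.11 with ceritinib (SE, adjusted p = 0.317) and 0.39 ± 0.13 with crizotinib (SE, adjusted p = 0.119). DNAJB4 differed by 0.11 with ceritinib and 0.36 with crizotinib (adjusted p = 0.113 for crizotinib). HSP90AB1, at -0.03 with ceritinib and 0.02 with crizotinib, and HSF1, at 0.12 and -0.01, had opposite signs with the agents. Several other members followed the majority below 0 without being called. HSP90AA1 differed by -0.03 with ceritinib and -0.14 with crizotinib. HSPA8 differed by -0.19 with ceritinib and -0.12 with crizotinib, HSPA1B by -0.15 and -0.004, and BAG3 by -0.21 and -0.36. HSPD1 and HSPE1 lay between -0.12 and -0.03 with both. The HSPD1 values depended on the setting. Over 16 alternative settings HSPD1 ran from -0.80 to -0.01 with crizotinib, and 1 of them called it lower. With ceritinib HSPD1 ran from -0.27 to -0.005 and was called in none.

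The crizotinib calls depended on single arrays. The count was 0 without either crizotinib array, untreated parental cells or untreated LR2, 1 without LR2 with ceritinib or without either LR3 array, and 9 without parental cells with ceritinib. The count over all genes moved as well: it was 0 of 10527 in each of the 4 settings with 0 members, 143 without LR2 with ceritinib, 535 without either LR3 array and 1529 without parental cells with ceritinib, against 396 with all arrays. The values without the arrays that ended a call were -0.998 to -0.64 for DNAJB1, -0.62 to -0.40 for DNAJC2 and -0.55 to -0.42 for HSPH1.

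Differences between single arrays have no test. In LR2 no member passed 1.5-fold with ceritinib (0.665% of all genes higher, 0.142% lower). With crizotinib in LR2 the members' median was -0.18, with 0 members at least 1.5-fold higher (2.24%) and 1 lower (2.36%). In LR3 none passed it with ceritinib (0.475% higher, 0.152% lower). With ceritinib in parental cells the median was -0.23, with 0 members higher (2.81%) and 3 lower (2.91%). With crizotinib in parental cells it was -0.13, with 1 member higher (3.3%) and 1 lower (2.68%). The member that was higher was HSPB1, and the lower ones were DNAJB1 in each of these 3 conditions, with DNAJA1 and CHORDC1 under ceritinib in parental cells.

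With ceritinib in LR2 the median over the members was -0.02, with 21 below 0. That array was brighter as a whole, with a median difference of 0.10 over all genes and 2380 of 10527 below 0. After centring each array on its median, the members' median with ceritinib in LR2 was -0.14 with 32 below 0, against -0.02 over all genes. With ceritinib in LR3 the centred median was -0.17 with 29 below 0, against -0.03 over all genes. Without centring the LR3 median was -0.13 with 28 below 0, against 0.01 over all genes with 4719 of 10527 below 0. All 8 tested HSP70 and HSP110 genes then lay below 0, HSPH1 lowest at -0.55. DUSP6 differed by -0.13 in the same LR3 pair of arrays, as given above. HSPB1 differed by 0.14 with ceritinib and 0.32 with crizotinib in LR2, by -0.04 with ceritinib in LR3, and by 0.56 with ceritinib and 0.59 with crizotinib in parental cells.

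**Figure D5:**
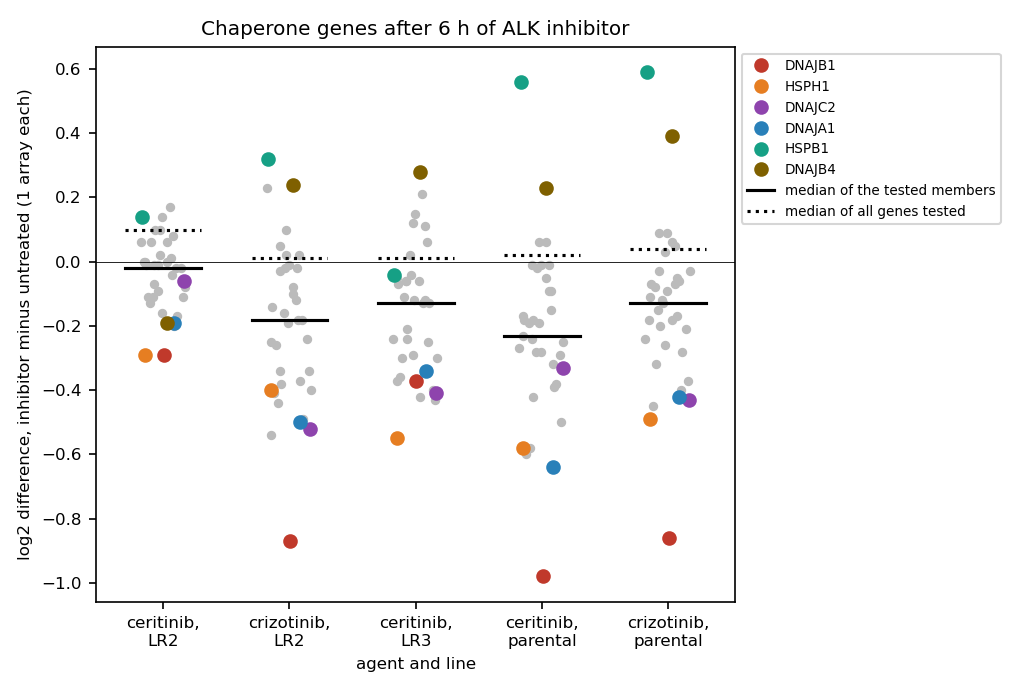
Each point is 1 tested member's log2 difference between an inhibitor array and the untreated array of the same line, with 6 genes coloured, and bars mark the medians of the members (solid) and of all genes (dotted). DNAJB1 is the lowest point with crizotinib in LR2 (-0.87) and with ceritinib (-0.98) and crizotinib (-0.86) in parental cells, and the members' median lies below that of all genes in each of the 5 conditions.

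The inhibitor response was also fitted per line, with both agents as 1 condition. In LR2 this joined agents with unlike values. DUSP6 differed there by -0.28 with ceritinib and -4.53 with crizotinib, and DNAJB1 by -0.29 and -0.87. Any difference between the agents within a line counted as spread in this fit, which limited the tests of all 3 lines. No member was called in parental cells, LR2 or LR3 (0% of all genes in each). At an unadjusted p under 0.05 there was 1 member in LR2 (2.86%, against 9.64% of all genes), 4 in LR3 (11.4%, against 4.74%) and 7 in parental cells (20%, against 17.6%). The difference of the responses between lines was tested as an interaction, LR2 minus parental and LR3 minus parental, and no member was called in either (0% of all genes in both), with 0 members in LR2 (against 2.38% of all genes) and 1 in LR3 (2.86%, against 4.8%) at an unadjusted p under 0.05. That 1 member, a share below that of all genes, was HSPB1, whose response in LR3 minus that in parental cells was -0.62 ± 0.18 (SE, adjusted p = 0.91). For DNAJB1 the difference of the responses was 0.34 in LR2, with a 95% interval of -0.51 to 1.19, and 0.55 in LR3, with an interval of -0.37 to 1.47.

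Ceritinib and crizotinib were compared with each other as 1 pair, at the same dose and time, with p-values adjusted over all genes. No member was called (0% of all genes), and no member had an unadjusted p under 0.05, against 6.05% of all genes. The ceritinib minus crizotinib difference was 0.27 for DNAJB1 (95% interval -0.10 to 0.65), 0.24 for DNAJC2 (-0.003 to 0.49), -0.25 for DNAJB4 (-0.52 to 0.02) and -0.01 for HSPH1 (-0.22 to 0.21). The lowest adjusted p of a member was 0.791. All 4 intervals include 0. Those of DNAJB1, DNAJC2 and DNAJB4 also include differences as large as 0.27, the smallest called above, and that of HSPH1 does not. Each estimate is common to the lines, and the lines could differ. DNAJB1 had 9.16 with ceritinib and 8.58 with crizotinib in LR2, but 8.29 and 8.41 in parental cells. HSPH1 had 10.00 and 9.89 in LR2, but 9.76 and 9.85 in parental cells. DNAJC2 and DNAJB4 had the same order of agents in both lines.

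Genes of the same pathways that are not among the 39 were taken as fixed lists. Over all genes tested, 12.8% were called higher and 9.68% lower in LR2, and 9.53% higher and 12.1% lower in LR3. Of 9 other TRiC and prefoldin genes, 1 was higher and 1 lower in LR2, and 1 was higher in LR3 (11.1% each). PFDN6, a prefoldin subunit, was higher in both (0.36 and 0.52, LR2 first), and CCT6A was lower in LR2 (-0.34). Of 19 tested co-chaperones beyond the members, 3 (15.8%) were higher in LR2, BAG5 (0.50), CACYBP (0.28) and BAG6 (0.27). In LR3, 2 (10.5%) were higher, BAG6 (0.49) and DNAJA4 (0.29). Of 10 other mitochondrial genes, TRAP1, the mitochondrial HSP90, was higher in LR2 (0.27) and LR3 (0.32), and the disaggregase CLPB was lower in both (-0.35 and -0.32). Each was 10% of that list.

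Of the 14 chaperones of the endoplasmic reticulum, 1 was lower in LR2, PDIA3 (-0.25), and 2 were higher in LR3, DNAJB9 (0.66) and SDF2L1 (0.44). The shares were 7.14% lower in LR2, against 9.68% of all genes, and 14.3% higher in LR3, against 9.53%. DNAJB9, a J protein of that compartment, was also 0.93 higher in LR3 than in LR2. Of 4 tested regulators and targets of heat shock factors, SERPINH1, the collagen chaperone, was lower in LR3 (-0.32). That was 25% of the list, against 12.1% of all genes. None of 10 further HSP70 and small heat shock genes could be tested. In both agent comparisons none of these lists held a called gene. Their medians with ceritinib and crizotinib were -0.05 and -0.05 for the endoplasmic reticulum list, 0.03 and -0.06 for the other co-chaperones, and -0.07 and -0.03 for other TRiC and prefoldin genes.

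Neighbouring genes of 4 members called in a line comparison were taken as the 10 nearest tested genes in the RefSeq order of GRCh38.p14, 5 on each side, and these 4 were chosen after the values were seen. Beside HSPA1B on chromosome 6, 8 of 10 neighbours were called higher in LR3 than in parental cells, at a median of 0.40. Beside FKBP4 on chromosome 12, none of 10 was called, at a median of 0.04. Beside HSP90AB1, 2 of 10 were higher in LR3, at a median of 0.14. Beside CHORDC1 on chromosome 11, 5 of 10 neighbours were lower in LR3 than in LR2 and none was above 0, at a median of -0.36. The part of genome position in these differences was not tested.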

How the data were processed

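The deposited table gives signals per probe set on a log2 scale, which the authors made with RMA, per the submitters' processing notes. The software, its version and which arrays were normalized together are not stated there. The authors' table held 49395 probe sets, of which 44988 carried 1 gene symbol and were no controls, and 102 were controls. No further normalization was applied. A gene was tested when its probe set of highest mean exceeded 5.36, the median of all values, in at least 2 arrays.

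Line and agent comparisons used limma 3.58.1 in R 4.3.3 with line and agent as terms (3 residual and 4.99 prior degrees of freedom). Responses per line used 6 cells, line by inhibitor or none (2 residual degrees of freedom). Errors after ± are limma's standard errors. Precision is limited by the number of arrays. The members and lists were chosen with earlier results of these data known. In each comparison every called member is named, with up to 3 called genes of each other list. Of a fixed list of 13 members, those tested are given whether called or not for line differences and for each agent against untreated cells. Some uncalled members outside that list are named as well. For ceritinib against crizotinib and for the fits per line, only some members are named, and these were not fixed by that list. Differences near the floor may be compressed. Alternatives changed the normalization, filter, probe sets, variance moderation, agent term and arrays, 1 at a time. Promoter windows are those of RefSeq, and neighbour order is that of assembly GCF_000001405.40.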

Additional observations from a re-analysis of the deposited data

How the results depend on the processing

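With another setting, the count of called members in LR2 against parental cells was 11 with the mean of all probe sets of a gene (2334 of 8928 genes called). It was 3 with no agent term (1478 of 10527 genes), against 7 (2369 genes). With 1 array left out it was 3 to 6 (1146 to 2116 genes). In LR3 against parental cells it was 0 with the matched arrays alone (0 of 10527 genes called), against 5 (2274 genes). With 1 array of LR2 or parental cells left out it was 3 to 6 (1283 to 2311 genes). Without either LR3 array fewer members and fewer genes were called than with all arrays. Between LR3 and LR2 it was 14 with trended and robust moderation (2447 genes) and 4 with no agent term (1568 genes). It was 1 with the matched arrays alone (544 genes), against 9 (2064 genes). With 1 array left out it was at most 12 (2630 genes), without parental cells with ceritinib. It was below 9 without either crizotinib array (1525 genes in both cases), LR2 with ceritinib (1293 genes) or untreated LR2 (1061 genes). Fewer members and fewer genes were called without either LR3 array as well.

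With crizotinib it was 0 with no filter (151 of 18132 genes) and 0 with the matched arrays alone (15 genes). It was 7 with trended and robust moderation (703 genes), against 3 (396 genes), and 0 to 9 with 1 array left out. With ceritinib it was 1 with the floor required in all 8 arrays (57 of 9487 genes) and 1 with trended and robust moderation (152 genes). That was against 0 (0 genes), and it was 0 with any array left out. Between ceritinib and crizotinib it was 0 to 1 with 1 array left out, and the 1 came without parental cells with ceritinib (401 genes). After centring, members past 1.5-fold numbered 1 with crizotinib in parental cells, 5 with ceritinib in parental cells and 1 with ceritinib in LR3, against 2, 3 and 0. After quantile normalization they numbered 2, 2 and 0 in that order. The shares of all genes past 1.5-fold were not counted under these settings, so these changes cannot be set against them.

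For called members, 395 alternative values kept their direction, and 116 of them lost the call. For uncalled named members, 31 of 929 gained one, and 76, of 22 results whose value in the full set was at most 0.145 in size, changed sign. With 1 of these the value was also called: HSPD1 in LR3 against parental cells was 0.37 without _s_at and _x_at probe sets, against -0.02 in the full set. The cause of these changes was not tested. Fits per line could not be made in 9 cases where leaving out an array removed a cell. The labels carry no replicate numbers, and arrays were matched by agent or by line, in the model and in the settings with the matched arrays alone.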
